A study of Mus musculus with 9 samples.

Results

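Skeletal muscle transcripts were followed tumor by tumor in 9 mammary tumors. The group held 38 genes of the 35275 in the table of counts. It comprised 11 contractile genes of fast muscle fibers, 7 of slow fibers, 9 genes of the Z-disc, the giant filament proteins and desmin, 5 genes of calcium handling, 5 genes of muscle energy supply, and *Eef1a2*, a translation elongation factor that muscle fibers use. The members were listed by gene symbol and matched by Ensembl identifier. They were chosen by their role in muscle after the difference between treated and saline tumors in these same 9 tumors was known. Values of treated against saline tumors, and of the saline tumors among themselves, are therefore given as a description with no support drawn from them. The comparison of NanoTLZ with i.v. TLZ was not used in the choice.

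The tumors arose in Brca1Co/Co;MMTV-Cre;p53+/- mice, in which Cre driven by the MMTV promoter deletes *Brca1* in mammary epithelium and 1 copy of *p53* is missing. This genotype was shared by all groups, the saline controls included. Talazoparib (TLZ) inhibits PARP, an enzyme of DNA repair on which BRCA-deficient cells depend. Mice received saline (tumors A3673, A3685 and A3688), free drug by vein (i.v. TLZ, tumors B3638, B3684 and B3700) or the drug in liposomal nanoparticles (NanoTLZ, tumors C3519, C3669 and C3698), as 5 doses given 3 times per week at 0.33 mg/kg of drug. The age of the mice was not given in the labels, and mice given empty nanoparticles were not analysed here. RNA was taken from the dissected tumor as a whole, so that transcripts of any cell type left in or beside the tumor were counted with those of the tumor cells.

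A skeletal muscle fiber contracts when thick filaments of myosin pull on thin filaments of actin, and calcium released inside the fiber starts this through the troponin complex on the thin filament. Fast and slow fibers build these filaments from different members of the same gene families. Muscle fibers are not a part of mammary epithelium, but body wall muscle lies close to the mammary glands of the mouse.

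Between 17538380 and 21194980 reads were counted on genes per tumor. Epithelial genes were abundant in all 9 tumors, with 11168 to 25020 counts of *Epcam* and 14269 to 45848 of *Krt8*. Saline tumor A3688 stood apart from the rest also outside the muscle genes. It had 40302 counts of the basal keratin *Krt5*, where the other 8 tumors had at most 1347. Because the tumors were measured in bulk, the cells that made a transcript were not identified. The number of such cells and the amount of RNA per cell cannot be told apart in any result that follows.

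The 250 bases upstream of the start of 3 members are shown because they carry, or lack, short sequences typical of muscle promoters. They are *Acta1*, the actin of skeletal muscle thin filaments, *Myh4*, the main myosin heavy chain of fast fibers, and *Eef1a2*. The sequences are from RefSeq on GRCm38.p6, written from 5′ to 3′ on the strand of the gene. Capitals mark 3 motifs, which read the same on both strands and did not overlap each other here. These are the E-box (CANNTG), which myogenic factors bind, the CArG box, which serum response factor binds, and the MEF2 site. The *Acta1* sequence lies at chr8:123894776-123895025 on the minus strand, that of *Myh4* at chr11:67237562-67237811 on the plus strand, and that of *Eef1a2* at chr2:181157016-181157265 on the minus strand.
Acta1: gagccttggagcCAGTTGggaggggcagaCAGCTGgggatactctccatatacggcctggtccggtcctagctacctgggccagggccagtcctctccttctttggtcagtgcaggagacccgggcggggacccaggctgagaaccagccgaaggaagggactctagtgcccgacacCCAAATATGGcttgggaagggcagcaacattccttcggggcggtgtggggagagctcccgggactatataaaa
Myh4: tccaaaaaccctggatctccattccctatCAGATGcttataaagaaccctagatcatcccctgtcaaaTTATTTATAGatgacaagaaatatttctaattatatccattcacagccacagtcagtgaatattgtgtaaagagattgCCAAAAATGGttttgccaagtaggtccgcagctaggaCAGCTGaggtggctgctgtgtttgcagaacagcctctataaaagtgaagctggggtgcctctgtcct
Eef1a2: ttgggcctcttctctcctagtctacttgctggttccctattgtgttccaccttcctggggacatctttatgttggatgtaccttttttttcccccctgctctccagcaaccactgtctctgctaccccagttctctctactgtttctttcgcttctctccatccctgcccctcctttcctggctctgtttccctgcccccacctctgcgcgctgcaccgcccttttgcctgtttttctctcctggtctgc

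*Acta1* held 2 E-boxes and 1 CArG box, the latter beginning at position -73 from the RefSeq start. All positions are counted from that start. The annotation used for exon lengths places the start elsewhere, at 123894751 for *Acta1* and 67238029 for *Myh4*. *Myh4* held 2 E-boxes, 1 CArG box at position -104 and 1 MEF2 site at position -182. The window of *Eef1a2* held 0 matches to the 3 patterns. A promoter sequence was found for 30 of the 38 members. An E-box was present in 25 of these 30 (83.3%) and in 69.3% of all 27025 genes with a promoter of the same length. A CArG box was present in 4 members (*Acta1*, *Myh4*, *Myl3* and *Ldb3*) and in 1.62% of all genes, and a MEF2 site in 5 members (*Myh1*, *Myh4*, *Xirp2*, *Ttn* and *Pvalb*) and in 3.42% of all genes. A match describes the letters in this window and does not show that a factor was bound.

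Levels per tumor are given as counts as deposited, or as CPM, which are counts scaled to the library size after TMM normalization. Levels of different genes are compared as RPKM, which is CPM divided by the exon length in kilobases. Together the 38 members had 74.99, 365.5 and 1247 CPM in saline tumors A3673, A3685 and A3688. They had 77.8, 45.2 and 53.1 CPM in the i.v. TLZ tumors B3638, B3684 and B3700, and 57.1, 49.3 and 41.9 CPM in the NanoTLZ tumors C3519, C3669 and C3698. The saline group was thus spread widely around its mean of 562.5 ± 610.3 CPM (SD, n = 3), while the means of 58.7 ± 17.0 after i.v. TLZ and 49.4 ± 7.61 after NanoTLZ had a narrow spread. Tumor A3688 had 16.0 times the summed level of the highest treated tumor and A3685 had 4.70 times that level. A3673 was at 0.964 times that level, so the groups overlapped in the sum of all members. Counts over the 38 genes made up 0.00664%, 0.0365% and 0.128% of all counts in A3673, A3685 and A3688 and 0.00434% to 0.00779% in treated tumors.

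**Figure D1:**
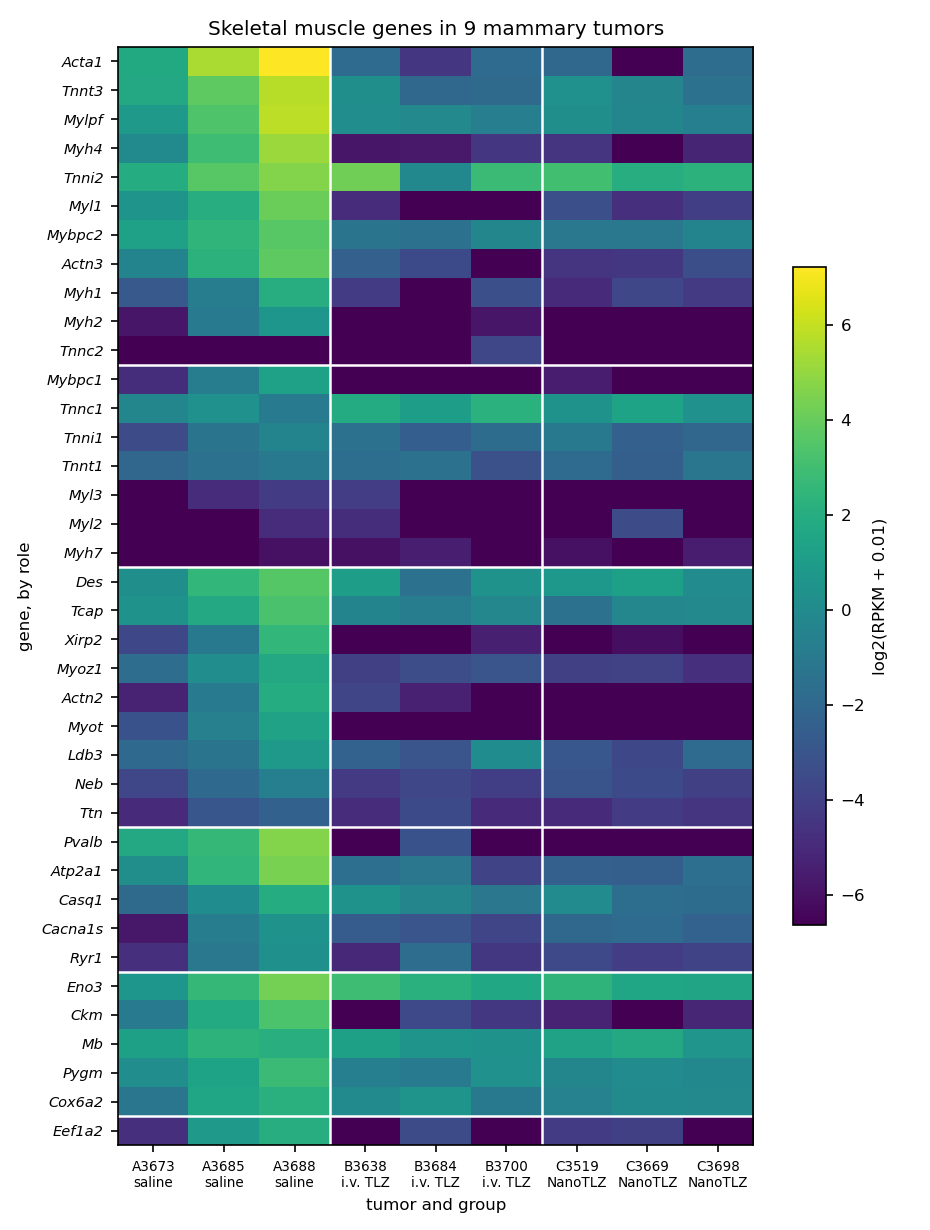
Level of each of the 38 members, as log2(RPKM + 0.01), in 9 tumors (columns, by group), with genes in rows by role and by mean level in the saline tumors within a role; white lines part roles and groups. Tumor A3688 was the brightest column, with the highest CPM of the 9 tumors in 32 members.

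More than 3 counts, taken as the smallest level that can be told from 0, were found for 29, 34 and 34 members in A3673, A3685 and A3688 and for 21 to 24 members in the treated tumors. In 17 of the 38 members, the highest of the 6 treated tumors lay below the lowest of the 3 saline tumors. Of the 29 members that passed the filter on low counts, 14 had this pattern, as did 2.66% of the 15821 genes tested. Leaving out A3673 raised this to 22 of 29 (5.76% of all genes tested), while it was 14 of 29 both without A3685 (9.46%) and without A3688 (5.33%). Treated tumors were all higher in 1 member, *Tnnc1*, and in 2.81% of all genes tested. Since this contrast was known when the members were chosen, nothing is read from these shares.

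The fast fiber genes had the highest levels, with *Acta1* counted among them although its actin is not particular to fast fibers. *Acta1*, the actin of skeletal muscle thin filaments, had 91, 1442 and 5038 counts in A3673, A3685 and A3688, 9, 1 and 8 in i.v. TLZ tumors, and 8, 0 and 9 in NanoTLZ tumors. *Myh4*, the myosin heavy chain of the fastest fibers, had 105, 963 and 4641 counts in the saline tumors, 1, 1 and 4 in i.v. TLZ tumors, and 4, 0 and 2 in NanoTLZ tumors. In both genes the groups were well apart, with 91 against 9 and 105 against 4 counts in the lowest saline and the highest treated tumor. *Tnnt3*, the troponin T of fast fibers, had 93, 460 and 1858 counts in saline, 39, 7 and 8 in i.v. TLZ tumors, and 42, 23 and 11 in NanoTLZ tumors. Its groups did not overlap either, but its treated tumors kept more of it. Per length, *Acta1* was the highest member in saline, with a mean of 66.1 RPKM, followed by *Tnnt3* with 23.7, *Mylpf* with 23.2 and *Myh4* with 14.7 RPKM.

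Further fast fiber genes showed the same order of saline tumors. *Myl1* and *Mylpf*, light chains of fast myosin, had 53, 176 and 796 counts and 34, 238 and 1320 counts in A3673, A3685 and A3688. After treatment *Myl1* had at most 4 counts, while *Mylpf* had 12 to 26. *Mybpc2*, the myosin binding protein C of fast fibers, had 156, 402 and 978 counts in saline and 23 to 55 in treated tumors, and *Actn3*, the actinin of fast fiber Z-discs, had 39, 299 and 881 in saline and 0 to 11 in treated tumors. The groups did not overlap in these 4 genes or in *Myh1* and *Myh2*.

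*Myh1* and *Myh2* encode the heavy chains of the fiber types between *Myh4* fibers and slow fibers. They had 15, 75 and 560 counts and 1, 82 and 240 counts in the saline tumors, with at most 11 and at most 1 in treated tumors. By RPKM, *Myh4* made up 87.5%, 87.3% and 86.4% of the 4 adult heavy chains *Myh1*, *Myh2*, *Myh4* and *Myh7* in A3673, A3685 and A3688. The share of *Myh1* was 11.8%, 6.44% and 9.87%, and that of *Myh2* 0.702%, 6.27% and 3.76%. The slow heavy chain *Myh7* had 0, 0 and 1 counts. The share of *Myh4* thus stayed nearly level over saline tumors whose *Myh4* level rose from 0.998 to 7.62 and 35.4 RPKM. The heavy chains resemble each other, since 18.6% of the windows of 50 bases in *Myh4*, 25.3% in *Myh1* and 25.8% in *Myh2* also occur in another heavy chain, and how such reads were counted was not given.

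*Tnni2* and *Tnnc2* were exceptions among the fast fiber genes. *Tnni2*, the troponin I of fast fibers, had 102, 388 and 829 counts in saline, 568, 24 and 196 in i.v. TLZ tumors, and 255, 110 and 139 in NanoTLZ tumors. Here the groups overlapped, and i.v. TLZ tumor B3638 was above 2 saline tumors. *Tnni2* had the highest mean CPM of all members in treated tumors, at 10.8 ± 9.03 (SD, n = 6), against 20.8 ± 16.2 (SD, n = 3) in saline. *Tnnc2*, the calcium sensor of fast troponin, had 0 counts in 8 tumors and 1 count in B3700. Of its exon length, 74.0% lies over exons of *Ube2c* on the opposite strand, a gene with 8956 counts in all, and the strand setting of the count was not given, so that its level is uncertain.

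Slow fiber genes had few counts throughout. *Myh7*, *Myl2* and *Myl3*, the heavy chain and both light chains of slow fibers, had at most 3 counts in every tumor, which cannot be told from 0 at this depth. *Mybpc1*, the slow type of myosin binding protein C, had 2, 54 and 245 counts in saline and at most 1 after treatment. *Tnni1*, the troponin I of slow fibers, had 5, 30 and 59 counts in saline, 26, 11 and 19 in i.v. TLZ tumors, and 36, 12 and 16 in NanoTLZ tumors. *Tnnt1*, the troponin T of slow fibers, had 9 to 23 counts in saline and 4 to 18 in treated tumors. The groups overlapped in both.

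*Tnnc1*, the troponin C of slow fibers and heart, went the other way. It had 15, 28 and 12 counts in A3673, A3685 and A3688, 80, 41 and 89 in i.v. TLZ tumors, and 30, 51 and 26 in NanoTLZ tumors. By CPM the lowest treated tumor was only just above the highest saline tumor, at 1.344 in C3698 against 1.333 in A3685. In counts their order was reversed, with 26 and 28. The saline mean was 0.913 ± 0.395 CPM (SD, n = 3), that of i.v. TLZ was 3.64 ± 1.30 and that of NanoTLZ was 1.86 ± 0.802. In A3688, the tumor with most of the other muscle transcripts, it was lowest.

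Z-disc and filament genes fell into a set found almost only in saline tumors and a set found in all tumors. *Xirp2*, which binds actin at Z-discs and intercalated discs, had 15, 122 and 1507 counts in A3673, A3685 and A3688, 0, 0 and 3 in i.v. TLZ tumors, and 0, 1 and 0 in NanoTLZ tumors. *Myot*, myotilin of the Z-disc, had 4, 30 and 124 counts in saline and 0 in each treated tumor, and *Actn2*, the actinin of all Z-discs, had 1, 40 and 314 in saline and at most 5 in treated tumors. These genes were near 0 after treatment, but *Actn2* was so in A3673 as well and its groups overlapped.

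*Des*, desmin, which smooth muscle and pericytes also make, had 79, 462 and 986 counts in saline, 162, 25 and 97 in i.v. TLZ tumors, and 129, 155 and 74 in NanoTLZ tumors. *Ttn*, the giant spring of the sarcomere, had 46, 296 and 474 counts in saline, 59, 165 and 46 in i.v. TLZ tumors, and 54, 91 and 72 in NanoTLZ tumors. In both, A3673 lay within the range of the treated tumors and the other saline tumors above it. *Neb*, nebulin, overlapped in the same way, with 32, 142 and 356 counts in saline and 23 to 61 in treated tumors. *Ldb3*, a Z-disc adaptor, had 28, 50 and 229 counts in saline and 8 to 118 in treated tumors, and i.v. TLZ tumor B3700 was above 2 saline tumors. *Tcap* and *Myoz1*, which bind titin and actinin at the Z-disc, did not overlap, with 23, 66 and 198 counts of *Tcap* in saline against 7 to 17 and 10, 44 and 137 counts of *Myoz1* against 1 to 4.

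Among calcium handling genes, *Atp2a1*, the calcium pump of fast fibers, had 70, 410 and 1638 counts in A3673, A3685 and A3688, 23, 28 and 4 in i.v. TLZ tumors, and 13, 11 and 22 in NanoTLZ tumors. *Pvalb*, parvalbumin, a calcium buffer of fast fibers, had 60, 134 and 568 counts in saline, 0, 2 and 0 after i.v. TLZ, and 0 in each NanoTLZ tumor. The groups did not overlap in either gene. *Ryr1*, the calcium release channel, had 10, 212 and 583 counts in saline, 9, 120 and 15 in i.v. TLZ tumors, and 34, 19 and 26 in NanoTLZ tumors, with A3673 among the lowest tumors and B3684 above the other treated tumors. *Cacna1s*, the voltage sensor, and *Casq1*, which stores calcium, also overlapped, with 1, 81 and 194 and 9, 43 and 162 counts in saline against 8 to 33 and 11 to 53 in treated tumors. Exons of *Rabep2* on the opposite strand, a gene with 7097 counts, cover 21.9% of *Atp2a1*.

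Of the energy genes, *Ckm*, the creatine kinase of muscle, had 27, 217 and 626 counts in saline, 0, 4 and 2 in i.v. TLZ tumors, and 1, 0 and 1 in NanoTLZ tumors. *Eno3*, the enolase of muscle, had 47, 222 and 755 counts in saline, 268, 145 and 101 in i.v. TLZ tumors, and 190, 94 and 91 in NanoTLZ tumors, and *Pygm*, the glycogen phosphorylase of muscle, had 63, 177 and 498 in saline, 41, 30 and 76 in i.v. TLZ tumors, and 55, 60 and 54 in NanoTLZ tumors. *Ckm* thus had at most 4 counts in any treated tumor, while *Eno3* was lower in A3673 than in any treated tumor and *Pygm* overlapped between A3673 and B3700. *Mb*, myoglobin, with 61, 157 and 133 counts in saline and 39 to 90 in treated tumors, and *Cox6a2*, a muscle subunit of cytochrome oxidase, with 5, 40 and 66 against 6 to 18, overlapped between groups.

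*Eef1a2* encodes eEF1A2, which brings aminoacyl-tRNA to the ribosome and replaces the more common eEF1A1 in muscle fibers and neurons. The gene lies on chromosome 2 from 181147653 to 181157014 (GRCm38). It had 1, 79 and 179 counts in A3673, A3685 and A3688, 0, 3 and 0 in i.v. TLZ tumors, and 2, 2 and 0 in NanoTLZ tumors. No treated tumor was above 3 counts, nor was saline tumor A3673, so the saline mean of 4.01 ± 4.08 CPM (SD, n = 3) rested on 2 tumors. Pooled over tumors, saline had 259 counts and all treated tumors 7, a ratio of 71.1 after scaling for depth with a counting interval of 34.0 to 179 (95%). This interval covers counting error only and not the spread between tumors, as do those that follow.

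*Eef1a1*, the counterpart of *Eef1a2* in most cells, had 65430 to 125502 counts, and none of the windows of 50 bases in *Eef1a2* (0%) occur in it. *Eef2*, whose product moves the ribosome along the mRNA, had 24934 to 82339 counts, and the ranges of both genes in the saline and treated tumors overlapped. Genes within 100 kb of *Eef1a2* include *Ppdpf*, *Ptk6*, *Srms*, *Fndc11*, *Helz2* and *Gmeb2*, and the groups overlapped in these 6. *Ptk6* and *Fndc11* had at most 10 counts in any tumor, and *Srms* had 3 to 45. *Ppdpf* had 622, 1038 and 1390 counts in A3673, A3685 and A3688 and 1032 to 1520 in treated tumors. *Helz2* had 469 to 1242 counts and *Gmeb2* 569 to 876, and in both genes A3673 was the highest saline tumor and A3688 the lowest.

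**Figure D2:**
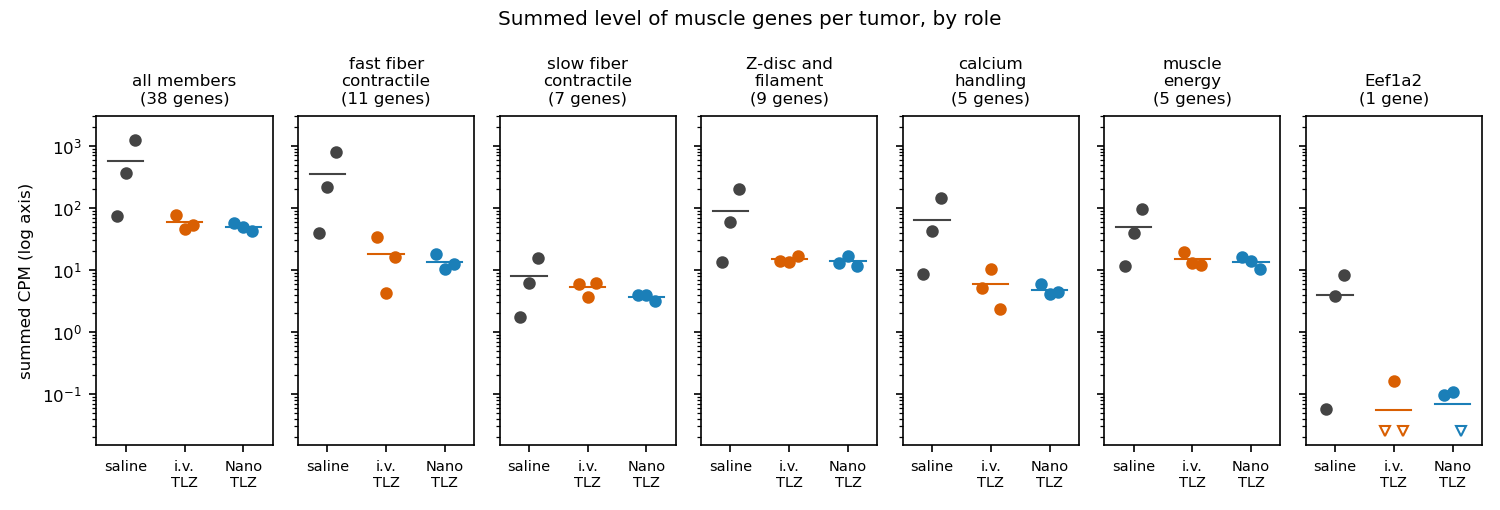
Summed CPM per tumor (log axis) of all members and of each role, with 3 tumors per group; bars are means, and open triangles at the foot mark tumors with 0 counts, which a log axis cannot show. In the sum of all members the saline tumors had 74.99, 365.5 and 1247 CPM and the treated tumors 41.9 to 77.8 CPM.

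The summed levels differed between roles in how far the saline tumors rose above the treated tumors. In A3688 the fast fiber genes had 785.5 CPM, 23.5 times the highest treated tumor, of which *Acta1* gave 230.9 CPM. The calcium handling genes had 144 CPM there, 13.8 times the highest treated tumor. The Z-disc and filament genes had 198 CPM (11.7 times), the energy genes 95.2 CPM (4.97 times) and the slow fiber genes 15.7 CPM (2.60 times). The slow fiber sum rested mainly on *Mybpc1*, with 11.2 CPM in A3688. *Tnni1*, *Tnnt1* and *Tnnc1* gave 2.70, 1.05 and 0.550 CPM there, and the highest treated sum of the slow fiber genes was 6.05 CPM. In A3673 the fast fiber genes were at 1.18 times the highest treated tumor, and the sums of the 4 other roles of more than 1 gene were below it, from 0.293 times for the slow fiber genes to 0.818 times for the calcium handling genes. Without *Des*, the sum of the other 37 members was 70.5 CPM in A3673 and 69.9 in the highest treated tumor.

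The saline tumors followed the same order in most members. The CPM was highest in A3688, next in A3685 and lowest in A3673 in 33 of the 38 members. Of the 29 tested members 27 had this order, as did 21.6% of all genes tested, and in 27 of the 29 A3688 was the highest of all 9 tumors, as it was for 25.7% of all genes tested. Of the 34 members with more than 3 counts in A3685 or A3688, the median ratio of A3688 to A3685 was 2.86, with quartiles of 2.21 and 4.06. The median ratio of A3685 to A3673 was 4.88, with quartiles of 2.87 and 6.75. Over all genes tested these medians were 1.019 and 1.003.

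The ratios of the members differed by more than counting error, which is the only error that their intervals cover. From A3685 to A3688, the counting interval of 12 members lay above the median ratio and that of 8 below it. *Xirp2* had the highest ratio, at 11.9 (9.88 to 14.4), followed by *Actn2* at 7.56 (5.43 to 10.8) and *Myh1* at 7.19 (5.64 to 9.27). *Acta1* had a ratio of 3.36 (3.17 to 3.57) and *Myh4* one of 4.64 (4.33 to 4.98), so that both intervals were apart. *Eef1a2*, at 2.18 (1.67 to 2.88), ranked 9th from the lowest of 34. *Ttn* at 1.54 (1.33 to 1.79), *Mb* at 0.816 (0.642 to 1.03) and *Tnnc1* at 0.413 (0.191 to 0.838) were near the low end.

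From A3673 to A3685 the order of the members was different. The largest ratios were those of *Myh2* at 68.3 (11.9 to 2730), *Cacna1s* at 67.5 (11.8 to 2697) and *Eef1a2* at 65.8 (11.5 to 2631), which had 1 count each in A3673. *Ryr1* had a ratio of 17.7 (9.41 to 37.4) and *Acta1* of 13.2 (10.7 to 16.5). *Pvalb* had a ratio of 1.86 (1.36 to 2.57) and *Mybpc2* of 2.15 (1.78 to 2.60). In A3673, *Pvalb* and *Mybpc2* thus remained at 60 and 156 counts where *Eef1a2*, *Myh2* and *Cacna1s* had 1.

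**Figure D3:**
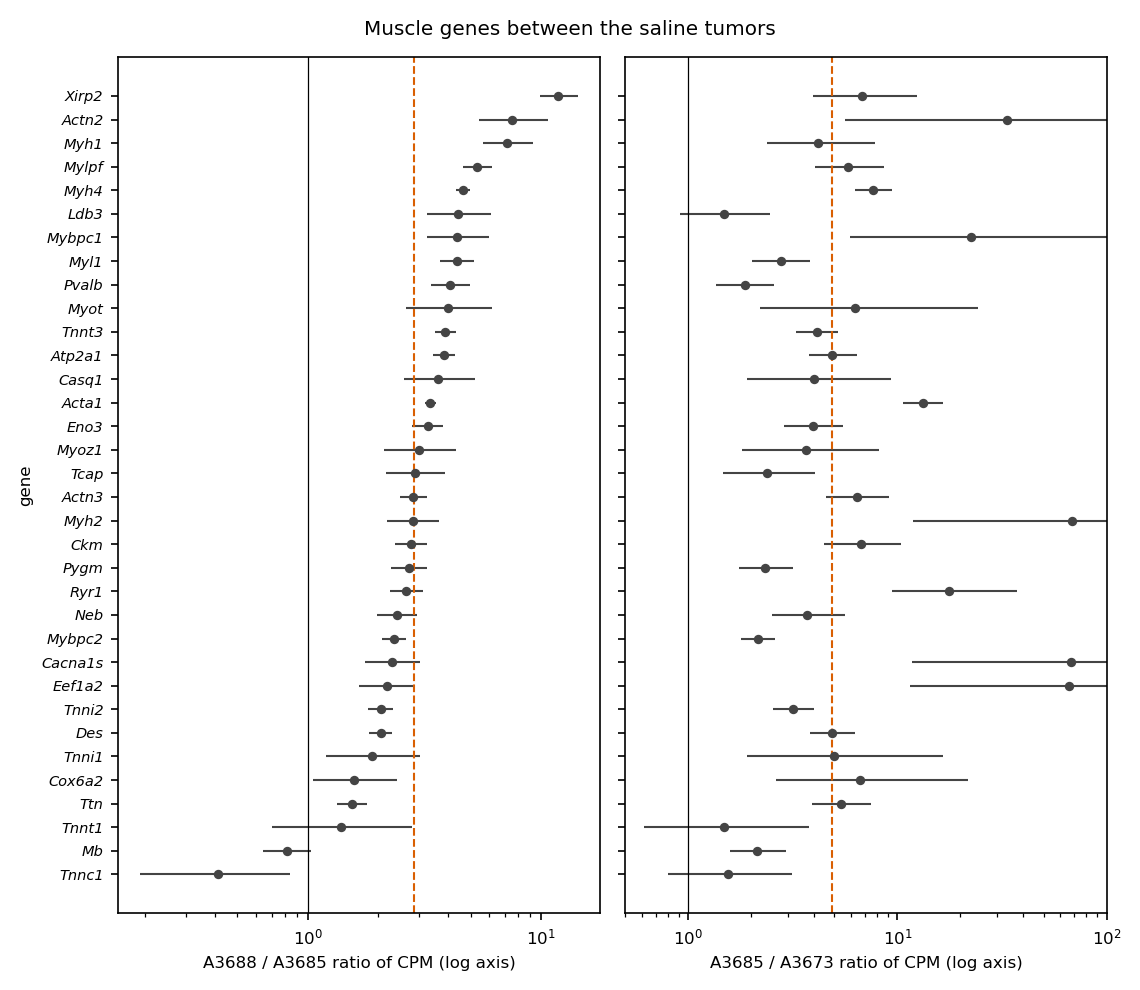
Ratio of CPM between saline tumors for the 34 members with more than 3 counts in A3685 or A3688 (log axes; A3688 to A3685 left, A3685 to A3673 right), with 95% counting intervals, some of which run past the right edge. Dashed lines mark the median ratios of 2.86 and 4.88, and solid lines a ratio of 1.

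Against saline, the edgeR log2 fold change was negative in 28 of the 29 tested members after i.v. TLZ and in 28 after NanoTLZ, *Tnnc1* being the exception. The median was -2.56 after i.v. TLZ and -2.73 after NanoTLZ, beside -0.03 and -0.09 over all genes tested. Both comparisons share the 3 saline tumors. After either treatment, edgeR called 0 members and 0% of all genes tested lower at an adjusted p under 0.05. In each comparison 20 of the 29 members had an unadjusted edgeR p under 0.05, in either direction. Of all 15821 genes tested, 1643 had such a p after i.v. TLZ and 1423 after NanoTLZ. DESeq2 on all 9 tumors called 17 of 34 members with an adjusted p lower after i.v. TLZ (0.374% of all genes with a p-value) and 16 of 34 after NanoTLZ (0.211%). Genes without an adjusted p are left out of the base of the members but not of the base over all genes. The 2 shares are therefore not strictly alike. With the mean of both treatments against saline, edgeR called *Myh4* and *Myl1* lower (0.0126% of all genes tested), and DESeq2 called 20 members (0.593% of all genes with a p-value), *Eef1a2* among them. Without A3673, edgeR called 14 members lower for that mean, beside 17 of 16360 genes in all (0.104%). It called 2 members without A3688, beside 2 of 16112 genes (0.0124%), and 0 members without A3685 or without any of the 6 treated tumors, left out in turn. These calls describe the contrast that was known when the members were chosen.

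Several members were so low after treatment that their fold change is only bounded by the depth. Pooled over tumors and set against a floor of 3 counts, *Myot* was at least 101-fold lower in treated than in saline tumors. *Pvalb* and *Actn2* had 0 counts in the NanoTLZ tumors and were at least 246-fold and at least 115-fold lower there than in saline, and for *Mybpc1* in the i.v. TLZ tumors the difference was at least 95.6-fold. The pooled saline to treated ratio was 361 (259 to 519) for *Acta1* and 914.5 (523 to 1771) for *Myh4*. The ratio was far smaller for *Tnni2* at 1.96 (1.82 to 2.12), *Mb* at 1.85 (1.59 to 2.15), *Eno3* at 2.21 (2.02 to 2.43) and *Ttn* at 3.22 (2.88 to 3.61). Since A3688 holds most of the saline counts, these pooled ratios mainly compare the treated tumors with that tumor.

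NanoTLZ and i.v. TLZ tumors were then compared directly, at the same dose of drug and number of doses. edgeR called 0 of the 29 tested members and 0% of all genes tested in either direction. At an unadjusted edgeR p under 0.05 there were 0 members, beside 266 of the 15821 genes tested. DESeq2 on all 9 tumors also called 0 members (0.0119% of all genes with a p-value). The smallest unadjusted p among the members was 0.11, for *Tnnc1*, and all adjusted p-values from edgeR were 1.0. The estimates ran from -2.70 for *Pvalb* (standard error 2.0004) to 2.40 for *Myl1* (standard error 1.46), and both of these rest on few counts. Several tested members passed the filter through the saline tumors and were near 0 in both treated groups. *Pvalb* had 2 counts in all in i.v. TLZ tumors and 0 in NanoTLZ tumors, *Xirp2* had 3 and 1, *Ckm* 6 and 2, and *Myh4* 6 and 6, so their comparison between the treatments carries little information.

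Better measured members bounded the difference more tightly. The log2 fold change of NanoTLZ against i.v. TLZ was 0.49 for *Mb* (standard error 0.49), 0.17 for *Pygm* (standard error 0.65), 0.07 for *Mybpc2* (standard error 0.61) and -0.97 for *Tnnc1* (standard error 0.55). The 2 groups did not overlap in 2 tested members, *Cacna1s* and *Myl1*, while 7.61% of all genes tested did not overlap. *Cacna1s* had 21, 14 and 8 counts after i.v. TLZ and 33, 33 and 25 after NanoTLZ, and *Myl1* had 1, 0 and 0 against 4, 1 and 2, of which counts up to 3 cannot be told from 0. The errors and the edgeR p-values between the treatments came from the fit to all tumors, saline included. The wide spread of the saline tumors thus entered them, and they do not measure the spread between treated tumors alone. With edgeR on the 2 treated groups only, 0 of 15246 genes were called. An unadjusted p under 0.05 was then found for 495 genes, beside 266 of 15821 in the fit to all tumors. With 3 tumors per group, differences within the errors given here could not be detected.

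**Figure D4:**
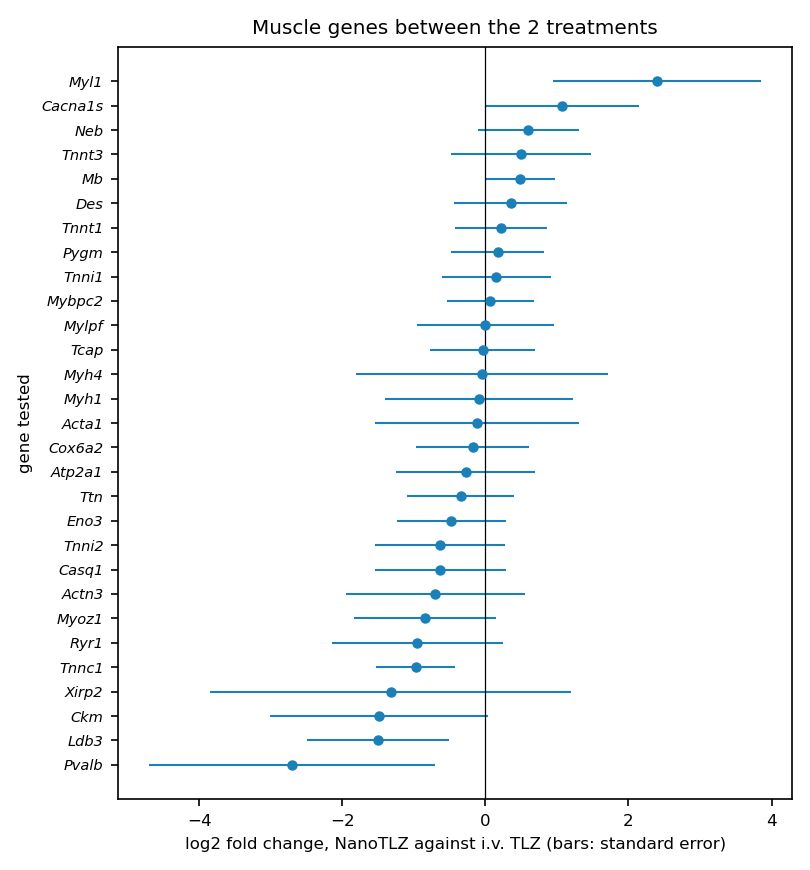
Log2 fold change of NanoTLZ against i.v. TLZ for the 29 tested members, with standard errors derived from the edgeR fit to all 9 tumors (3 tumors per group). The values lie on both sides of 0, from -2.70 for *Pvalb* to 2.40 for *Myl1*.

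Of 21 further sarcomere and Z-disc genes outside the 38 members, 20 were highest in A3688, and their summed level was 11.3, 32.8 and 138 CPM in A3673, A3685 and A3688 and 9.45 to 23.2 CPM in treated tumors. The most abundant were *Pdlim3*, a Z-disc adaptor, with 40, 175 and 527 counts in saline and 14 to 177 in treated tumors, and *Myom1* of the M-band, with 36, 132 and 361 in saline and 40 to 129 in treated tumors. Of the 9 that were tested, edgeR called 0 in any comparison. For the mean of both treatments, 4 were lower at an unadjusted p under 0.05, and the median log2 fold change was -1.54. Of all 15821 genes tested, 2072 had an unadjusted edgeR p under 0.05 in that contrast, in either direction.

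Of 20 further genes of excitation and calcium handling, 13 were highest in A3688, and of 15 further energy genes, 12 were. Of the 12 tested genes in each list, edgeR called 0. At an unadjusted edgeR p under 0.05 for the mean of both treatments, 4 were lower and 2 higher, and 4 lower and 0 higher. Over all 15821 genes tested there were 2072 at that threshold, in either direction. *Chrnb1*, a subunit of the acetylcholine receptor, was lowest in A3688, at 128 counts, and highest in B3684, at 2859, and *Srl*, sarcalumenin, had 229, 258 and 468 counts in saline and 70 to 201 in treated tumors. *Pfkm* and *Phka1*, of glycolysis and glycogen breakdown, had 760 and 165 counts in A3688 and 830 to 1270 and 122 to 421 in the 6 treated tumors. Of 6 genes of muscle atrophy and turnover, 5 were highest in A3688. *Fbxo32*, a ubiquitin ligase of muscle wasting, had 6321 counts there and 931 to 2189 in the other 8 tumors, and *Asb2* had 28 there and 7 to 90 elsewhere.

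Regulators of muscle differentiation were scarce. *Myod1*, *Myog* and *Myf6* had 5, 14 and 20 counts in A3688, 1 each in A3685 and at most 1 in the other 7 tumors. *Pax7* had 1 count in all, and *Myf5* had 0 in each tumor. The 2 most abundant genes of this list were *Mef2c*, with 153 to 609 counts, and *Cdh15*, with 11 to 340, and neither was highest in A3685 or A3688. The 11 genes of the list summed to 22.0 to 27.4 CPM in saline tumors, to 9.67 to 38.3 in i.v. TLZ tumors and to 22.4 to 34.9 in NanoTLZ tumors. *Mef2c* alone gave 17.78, 13.8 and 24.65 CPM in A3673, A3685 and A3688, so the sum says little about *Myod1*, *Myog* and *Myf6*. The developmental genes *Myl4* and *Myh3* had 13, 45 and 22 and 0, 2 and 23 counts in A3673, A3685 and A3688, beside 7 to 37 and 2 to 7 in treated tumors. With *Myh8* and *Chrng*, these genes summed to at most 2.52 CPM in any tumor.

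Markers of other cell types overlapped between saline and treated tumors in every summed list. Of 9 heart genes, *Myh6*, *Nppa* and *Ryr2* had at most 3 counts in every tumor, and the most abundant, *Tnnt2* and *Tnni3*, had 303, 1265 and 501 and 50, 125 and 42 counts in A3673, A3685 and A3688, within or near the treated ranges of 333 to 2223 and 70 to 230. The heart list summed to 21.6 to 68.5 CPM in saline and 25.2 to 117 in treated tumors. *Actc1*, cardiac actin, had 11, 11 and 21 counts in A3673, A3685 and A3688, 2 counts in C3519 and 0 in the other 5 treated tumors. Its groups did not overlap, and edgeR gave it an adjusted p of 0.206 for the mean of both treatments. The 9 smooth muscle and myoepithelial genes summed to 121.5 to 518.5 CPM in i.v. TLZ tumors and 248 to 420.1 CPM in NanoTLZ tumors. In A3673, A3685 and A3688 it was 276, 363 and 483 CPM, of which *Actg2* alone gave 4.17, 11.5 and 219.7 CPM. Summed without *Actg2*, a choice made after its values were seen, the list stood at 272, 351 and 263 CPM. *Smtn* and *Tagln* led that list by mean level, and *Actg2* reached 4794 counts in A3688 against at most 276 in the other tumors. The 9 adipocyte genes summed to 22.3 to 36.4 CPM in saline and to 18.2 to 83.2 in treated tumors, with the highest level in NanoTLZ tumor C3519 and 617 counts of *Fabp4* in A3688 against 119 and 146 in the other saline tumors.

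The 6 epidermis genes in the table, led by *Sbsn* and *Krt10*, summed to 24.1 to 30.0 CPM in saline and 24.1 to 52.3 in treated tumors, with *Krt2* at 0 in each tumor. The 4 Schwann cell genes, led by *Mbp* and *Prx*, summed to 71.4, 81.8 and 184 CPM in A3673, A3685 and A3688 and to 62.5 to 220.2 in treated tumors. *Mbp* gave 59.9, 71.3 and 173 CPM of it, and the other 3 genes summed to 11.5, 10.5 and 11.2 CPM, also a sum formed after these values were seen. The 6 neuron genes, led by *Stmn2* and *Tubb3*, summed to 1.89 to 6.14 CPM in saline and 4.81 to 13.4 in treated tumors. The 7 mammary epithelial genes, led by *Krt8* and *Krt14*, summed to 4357 to 8366 CPM in saline and 3582 to 6120 in treated tumors. Of 16 non-muscle counterparts of the members, led by *Eef1a1* and *Actb*, 4 were highest in A3688 and edgeR called 0. The part of muscle tissue taken along with a tumor, or of any other cell type, in the levels of the members was not tested.

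**Figure D5:**
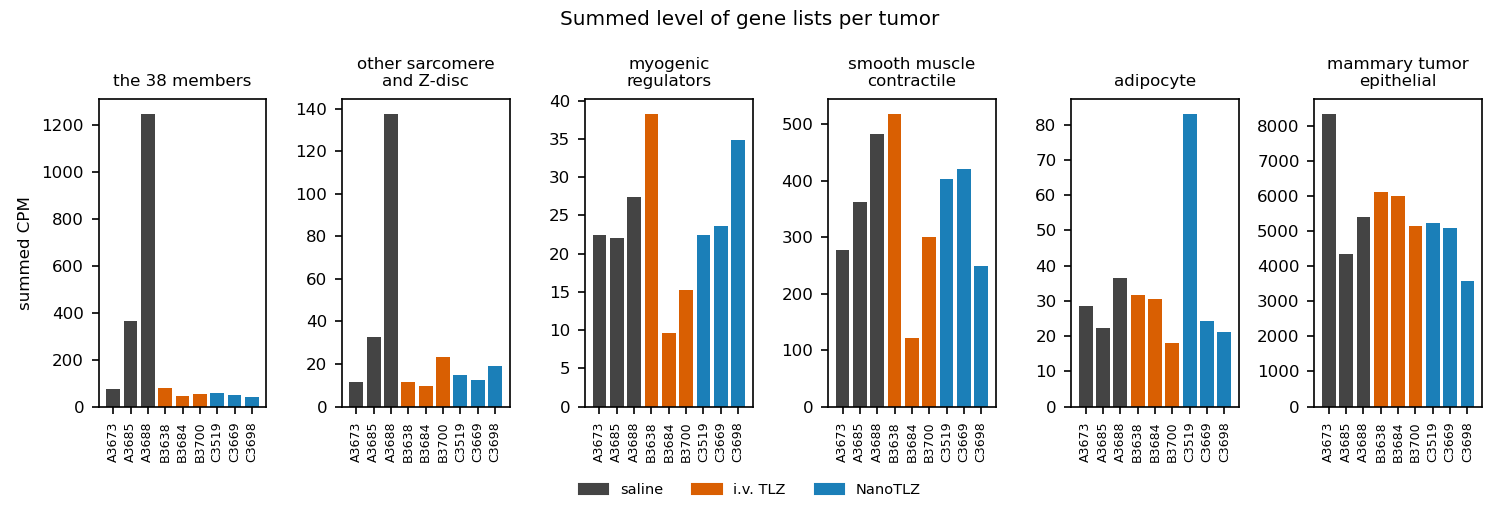
Summed CPM per tumor of the 38 members and of 5 further gene lists (each panel has its own scale from 0). The members and the other sarcomere and Z-disc genes peak in A3688, at 1247 and 138 CPM, whereas the adipocyte genes peak in NanoTLZ tumor C3519, at 83.2 CPM.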

How the data were processed

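Tumors were dissected and flash frozen, and total RNA was sequenced on Illumina libraries by Novogene for the authors, who deposited raw read counts per gene for 9 tumors, without normalization. The submitters' processing notes name TopHat2, DESeq2 and mm10. The counting program, the annotation and the strand setting are not given in the sources used here. Each tumor was 1 replicate, assigned to its group from the labels. No 2 columns were identical and 0 columns were left unused. The p-values measure the spread between these tumors.

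Of 35275 Ensembl identifiers, 34490 matched GENCODE M21 on GRCm38, from which symbols, positions and exon lengths for RPKM were taken. The 38 members, the role groups and the further lists were chosen with earlier results of these data known. Genes were filtered with filterByExpr (minimum count 10, minimum total 15), which left 15821 genes, 29 members among them. The other 9 (*Tnnc2*, *Myh2*, *Myl2*, *Myh7*, *Myl3*, *Mybpc1*, *Actn2*, *Myot* and *Eef1a2*) were too low. All 9 tumors entered the fit, with a coefficient for each group, TMM scaling and edgeR's quasi-likelihood test (edgeR 4.0.16, R 4.3.3), with Benjamini-Hochberg adjustment over all tested genes and a threshold of 0.05. The biological coefficient of variation was 49.8%. Standard errors were derived as the absolute log2 fold change divided by the square root of the F value of the test. They are approximate for members near 0 counts.

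Values were named for *Eef1a2*, the 3 members of each role with the highest mean in saline and the 3 members with the highest mean in treated tumors, and the others were added by role. From each further list the 2 most abundant genes were named, with further genes of the lists named after their values were seen. Pooled ratios and ratios between tumors have exact 95% counting intervals, and a sum of 3 counts was taken as the floor. Alternatives were RLE and upper quartile scaling, no filter, DESeq2 1.42.0 on all 9 tumors or 2 groups, edgeR on 2 groups, robust dispersion and each tumor left out. Counts of non-overlapping members without each saline tumor were added after seeing the data. The fits were tested on simulated counts. Levels and ratios were computed in Python 3.11.15 (scipy 1.17.1, pandas 2.3.3, numpy 2.4.6), and plots were drawn with matplotlib 3.10.9. Promoter sequences are from RefSeq.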

Additional observations from a re-analysis of the deposited data

How the results depend on the processing

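The calls of members against saline depended on the tool, the filter and the saline tumors. Without a filter on low counts, edgeR called 16 members for the mean of both treatments, 3 for i.v. TLZ and 5 for NanoTLZ, beside 28, 3 and 5 of 25483 genes called lower in all. DESeq2 on all 9 tumors called 20, 17 and 16 members, beside 149, 94 and 53 of 25112 genes. DESeq2 on the 2 groups compared called 17 members for i.v. TLZ and 16 for NanoTLZ, beside 45 of 24188 and 85 of 24106 genes. In the further lists, calls were counted in either direction. There edgeR without a filter called 2 genes for the mean of both treatments, beside 5 higher and 28 lower over all genes. DESeq2 on all 9 tumors called 12 for that mean, 8 for i.v. TLZ and 5 for NanoTLZ. Over all genes it called 127 higher and 149 lower, 100 and 94, and 56 and 53. DESeq2 on 2 groups called 5 for i.v. TLZ and 7 for NanoTLZ. Over all genes it called 47 higher and 45 lower, and 86 and 85. Nothing is read from these counts, as the lists were chosen with earlier results known. With each tumor left out in turn, edgeR called 0 to 14 members for the mean of both treatments (14 without A3673, beside 17 of 16360 genes in all, 2 without A3688, beside 2 of 16112 genes, and 0 without A3685 or without any of the treated tumors), 0 to 0 after i.v. TLZ, 0 to 1 after NanoTLZ and 0 to 0 between the treatments, and 0 to 2 genes of the further lists for the mean of both treatments and 0 to 0 in the other comparisons. After NanoTLZ, edgeR called 2 of 16360 genes lower in all without A3673 and 0 without any other tumor. The mean summed CPM of the members ran from 220.2 (without A3688) to 806.2 (without A3673) in saline tumors, 49.1 to 65.4 in i.v. TLZ tumors and 45.6 to 53.2 in NanoTLZ tumors. The log2 fold change against saline turned positive without A3688 in 3 members. Over the tumors left out, that of *Tnni1* ran from -1.0 to 0.25 for both treatments, from -1.08 to 0.16 for i.v. TLZ and from -0.98 to 0.33 for NanoTLZ, that of *Eno3* from -1.57 to 0.18 for both and from -1.35 to 0.41 for i.v. TLZ, and that of *Tnni2* from -1.80 to 0.11 for i.v. TLZ. The cause was not tested. RLE and upper quartile scaling and robust dispersion moved no count of called members by more than 1.5 times. No paired analysis was possible because no number in the tumor names is shared between groups. Members with at most 3 counts cannot be told from 0 at this depth, and with 3 tumors per group and the wide spread in saline, the errors are large.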
